A study of Gallus gallus with 12 samples.

Results

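Among the genes of hypothalamic microglia in chicks, 34 had a lower mean level 24 h after lipopolysaccharide (LPS) than after saline in both birds with and birds without early heat conditioning. They were chosen from 11207 genes in the deposited count table, of which 3999 had at least 150 counts over the 12 libraries. Levels are in CPM, the count of a gene divided by the total of its library and scaled to the same total in all libraries. For each gene the log2 ratio of the LPS mean to the saline mean was taken after adding 5 CPM to both, and a gene was kept where this ratio was -0.5 or lower in each state. Both LPS comparisons therefore chose the genes, and their values below describe the choice and test nothing.

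FACS isolated the microglia from anterior hypothalami of chicks (Gallus gallus) at day 11, and 10 to 12 birds were pooled per library. The Saline Non-Cond and LPS Non-Cond groups were not conditioned, and the Saline Cond and LPS Cond groups spent 24 h at 39°C from day 3 after hatching. Every bird received saline or LPS into the third ventricle on day 10, so the saline groups also carry the injection itself. Each group had 3 bulk MARS-seq libraries, which count transcripts from their polyadenylated end, and p-values measure the spread between these pools. DNA methylation, also named in the labels, is not analysed here. Total counts ran from 189180 to 963146 per library, and the lowest total belonged to Saline Non-Cond replicate 2. With such totals, 3 counts correspond to between 3.11 and 15.9 CPM.

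Microglia are the resident macrophages of the brain. LPS is a component of the outer membrane of Gram-negative bacteria. In mammals it is sensed through Toll-like receptor 4 and its co-receptors, which start NF-κB and interferon signalling. In mouse microglia this activation is known to raise cytokine and chemokine genes and to lower many genes of the resting state, such as receptors that survey the tissue. The deposited table identifies genes by Ensembl identifiers alone, and 0 of them could be paired with a gene name in the sources used here. Roles, marker lists and sequences of the 34 genes are therefore not given, and the sorted cell type was not checked against its markers. In bulk libraries, fewer cells of a type and less RNA per cell cannot be told apart.

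Genes are numbered from 1 to 34 by the larger of their 2 ratios, with number 1 the lowest. Of the 3999 genes, 219 (5.48%) had a ratio of -0.5 or lower without conditioning and 246 (6.15%) with it. The 34 genes are 15.5% of the former and 13.8% of the latter, and 0.85% of all 3999. By the mirrored rule, 57 genes had ratios of 0.5 or higher in both states. The ratios of the 34 genes had a median of -0.64 without conditioning, from -1.52 to -0.51, and of -0.65 with it, from -3.24 to -0.50. Over all 3999 genes the medians were 0.01 and -0.01. The ratio was lower with conditioning in 19 of the 34 genes and lower without it in 15.

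**Figure D1:**
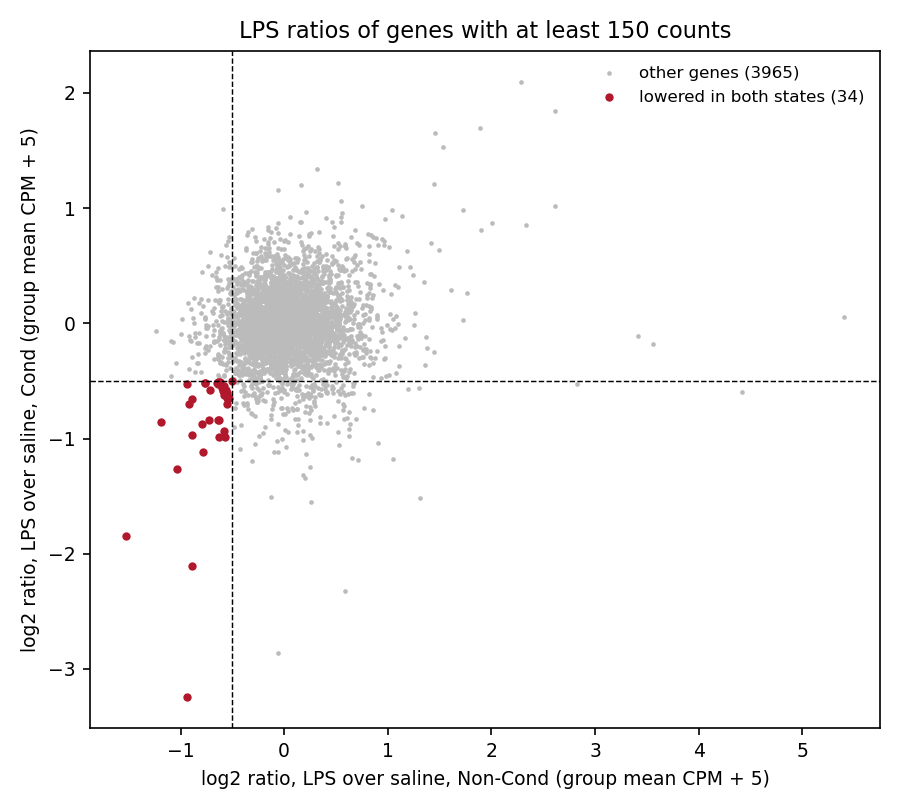
Each point is 1 of the 3999 genes with at least 150 counts, with its log2 LPS to saline ratio in non-conditioned chicks on the x axis and in conditioned chicks on the y axis, and dashed lines at -0.5. The 34 red genes fill the lower left corner by the rule, and number 3 lies farthest down at -3.24 with conditioning.

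At a threshold of -0.75 in place of -0.5, 8 of the 34 genes would remain. The 3 genes just inside the threshold of -0.5 had a larger ratio of -0.507, -0.506 and -0.504, and the 3 just outside had -0.499, -0.486 and -0.482. Abundance spanned a wide range. The mean level over the 12 libraries had a median of 54.7 CPM and ran from 30.4 to 24095 CPM, against a median of 76.1 CPM over the 3999 genes. A total under 300 counts, with 150 the lowest the rule allows, was held by 19 of the 34 genes and by 36.2% of the 3999. All 34 genes passed the filter of the test across genes, and 31 had more than 3 counts in each of the 12 libraries.

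ENSGALG00000025810.3, number 7, was the first gene in the ranking whose LPS libraries lay below its saline libraries in both states. It stood at 422, 301 and 316 CPM in the Saline Non-Cond libraries (replicates 1 to 3) and at 264, 138 and 190 CPM in the LPS Non-Cond libraries. In conditioned birds its levels were 266, 250 and 263 CPM with saline and 98.2, 145 and 175 CPM with LPS. No saline library overlapped with an LPS library in either state, though the highest LPS Non-Cond library, at 264 CPM, reached the Saline Cond levels. The non-conditioned means were 346 ± 65.8 CPM for saline and 197 ± 63.5 CPM for LPS, a ratio of -0.80. The conditioned means were 260 ± 8.63 and 139 ± 38.6 CPM, a ratio of -0.88 (SD, n = 3).

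ENSGALG00000009854.6, number 8, was less abundant and varied less between pools. Its Saline Non-Cond libraries stood at 69.7, 63.4 and 64.7 CPM and its LPS Non-Cond libraries at 37.8, 37.4 and 33.3 CPM. The Saline Cond libraries stood at 44.1, 55.0 and 50.9 CPM and the LPS Cond libraries at 12.8, 21.8 and 26.6 CPM. The 4 groups did not overlap with each other, in the order Saline Non-Cond, Saline Cond, LPS Non-Cond and LPS Cond. These levels rest on 12 to 33 counts per Saline Non-Cond library and on 6, 11 and 12 counts in the LPS Cond libraries. The non-conditioned means were 66.0 ± 3.35 CPM for saline and 36.1 ± 2.50 CPM for LPS, a ratio of -0.79. The conditioned means were 49.99 ± 5.53 and 20.4 ± 6.99 CPM, a ratio of -1.12 (SD, n = 3).

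**Figure D2:**
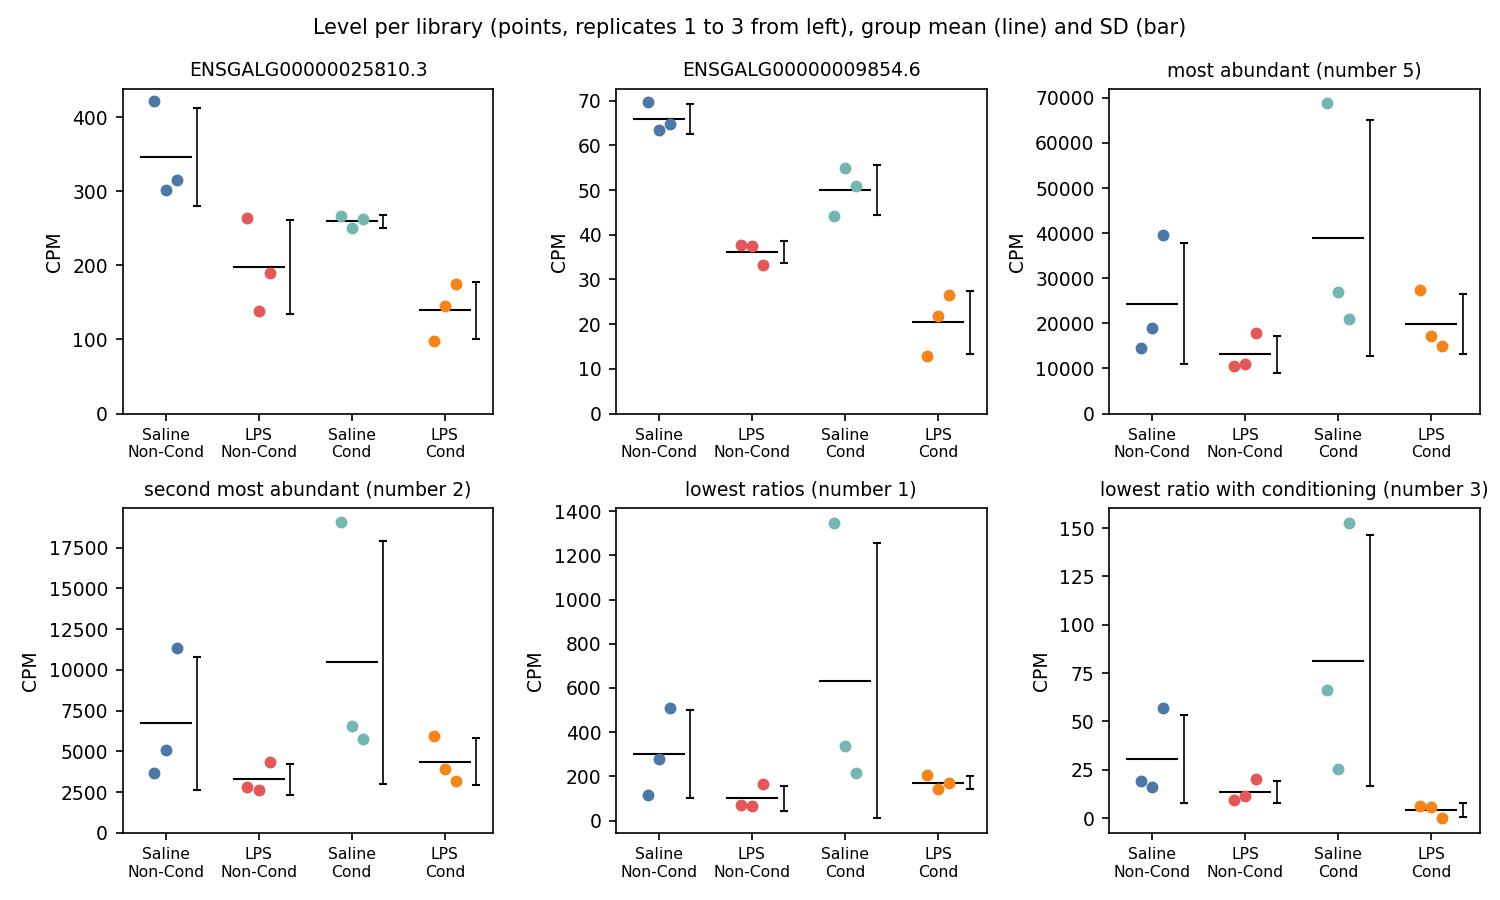
CPM per library (points, replicates 1 to 3 from left) for 6 of the 34 genes by group, with the group mean as a line and the SD (n = 3) as a bar. ENSGALG00000025810.3 and ENSGALG00000009854.6 have no overlap between saline and LPS in either state, while in genes 5, 2 and 1 the library Saline Cond replicate 1 stands far above the others, at 68973, 19088 and 1346 CPM.

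How cleanly LPS and saline libraries separated differed among the 34 genes. Without conditioning the 3 LPS libraries lay below the 3 saline libraries in 12 of them, and with conditioning in 22. Over the 3999 genes this held for 6.33% and 8.28%. It held in both states for 9 of the 34 genes and for 0.625% of the 3999. In 16 genes it held in 1 state only, and in 9 in neither. Since the rule used these comparisons, nothing is read from the difference to the other genes. The highest of the 12 libraries was a saline library in all 34 genes. The lowest was an LPS library in 32, and in the other 2, numbers 26 and 34, it was Saline Non-Cond replicate 3. The rule favours these counts of 34 and 32, which were not taken over the 3999 genes, so nothing is read from them. Number 26 stood at 85.6, 52.9 and 0 CPM in the Saline Non-Cond and at 22.03, 29.2 and 39.9 CPM in the LPS Non-Cond libraries. All 3 LPS libraries thus lay between the saline libraries, at a ratio of -0.53.

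A fit across all genes (edgeR, adjusted p under 0.05 by Benjamini and Hochberg) called number 29 for LPS without conditioning and number 3 for LPS with conditioning, 1 of the 34 each. Of 5170 tested genes it called 0.542% without conditioning (0.0967% lower) and 0.174% with it (0.058% lower). The count without conditioning was 0 in 7 of 12 settings with 1 library left out, namely Saline Non-Cond replicates 2 and 3, Saline Cond replicates 2 and 3 and the 3 LPS Cond replicates. Over all tested genes these 7 settings called between 8 and 27. The count of the 34 was 2 without Saline Non-Cond replicate 1 or Saline Cond replicate 1, 3 without LPS Non-Cond replicate 1, 2 with DESeq2 and 7 with no filter on low counts. In the same order, these settings called 65, 30, 30, 35 and 80 of all tested genes. DESeq2 gave 10 of the 34 genes no adjusted p for LPS without conditioning. The count with conditioning was 0 without Saline Cond replicate 3, 3 with limma and library weights and 9 with no filter, beside 2, 25 and 65 of all tested genes. DESeq2 called 0 of the 34 with conditioning and 13 genes in all. It gave no adjusted p to 19 of the 34 genes, number 3 among them. For the mean of both LPS effects the edgeR fit called 8 of the 34, beside 0.735% of all tested genes, of which 10 genes (0.193%) were lower. These 8 were numbers 1, 3, 7, 8, 9, 11, 28 and 29, with log2 fold changes from -2.90 to -0.69. In 6 of them the LPS libraries lay below the saline libraries in both states. The calls and this order rest on the same libraries, so nothing is read from the count of 6. The other 26 did not pass. The count rose from 8 to 13 without Saline Non-Cond replicate 1 or LPS Non-Cond replicate 1, and was 5 without LPS Non-Cond replicate 2 and 4 without LPS Cond replicate 1. With no filter on low counts it was 16. In the same order, these settings called 78, 69, 22, 19 and 109 of all tested genes. Without LPS Cond replicate 1, ENSGALG00000009854.6 was no longer called (edgeR adjusted p = 0.0688). DESeq2 also called 8 for the mean effect, beside 52 genes in all. It gave 15 of the 34 genes, ENSGALG00000009854.6 among them, no adjusted p.

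The most abundant of the 34 genes, number 5, had the widest range in CPM. Its Saline Non-Cond libraries stood at 14539, 18961 and 39664 CPM and its LPS Non-Cond libraries at 10585, 11028 and 17879 CPM. With conditioning it stood at 68973, 27026 and 20942 CPM after saline and at 27348, 17238 and 14957 CPM after LPS. Saline Cond replicate 1 was 2.55 times the next library of its group and Saline Non-Cond replicate 3 was 2.09 times the next of its own, and the saline and LPS libraries overlapped in both states. The gene held between 1.06% and 6.90% of all counts of a library. Its non-conditioned means were 24388 ± 13413 CPM for saline and 13164 ± 4090 CPM for LPS, and its conditioned means were 38980 ± 26152 and 19848 ± 6594 CPM (SD, n = 3).

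Number 2, the next most abundant, followed it library by library. It stood at 3674, 5106 and 11356 CPM in the Saline Non-Cond and at 2807, 2653 and 4366 CPM in the LPS Non-Cond libraries. The Saline Cond libraries stood at 19088, 6583 and 5738 CPM and the LPS Cond libraries at 5950, 3944 and 3175 CPM. Its counts divided by those of number 5 stayed between 0.212 and 0.286 in the 12 libraries, a 1.35-fold range, while its level ranged 7.19-fold. Where 2 genes are near-identical copies, the counting could split reads between them, and this was not tested.

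Number 1 had the lowest ratio without conditioning among all 3999 genes, at -1.52, and -1.84 with conditioning. It stood at 114, 280 and 512 CPM in the Saline Non-Cond and at 72.4, 66.6 and 166 CPM in the LPS Non-Cond libraries. In conditioned birds it stood at 1346, 339 and 214 CPM with saline and at 205, 145 and 168 CPM with LPS. The groups overlapped without conditioning and did not with it, where replicate 1 was 3.97 times the next saline library.

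Numbers 1, 2, 5 and 19 formed a group by their variation between pools of the same treatment. Deviations of log2 CPM from the group mean correlated between them at a Pearson r of 0.81 to 0.995 over the 12 libraries, as a description. This log2 CPM came from edgeR, with TMM-scaled library totals and a prior count of 2, unlike the CPM levels given above. The rule did not use these deviations as such, but the libraries with high levels also entered the group means that chose the genes. The r values are therefore not independent of the choice. These deviations share the library and its depth, and leave 8 degrees of freedom. Among the 34 genes no other correlated with number 5 above 0.571, and genes outside the 34 were not compared with it. All 4 had their highest level in Saline Cond replicate 1, whose total of 589900 counts was neither the lowest nor the highest. Over all 561 pairs of the 34 genes the median r was 0.02, with 30 pairs above 0.7 and 6 below -0.7. Pairs of other genes were not compared, and low counts weaken r. Whether the 34 genes vary together as 1 group was therefore not tested.

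Without Saline Cond replicate 1 and Saline Non-Cond replicate 3, the ratios of number 5 were -0.35 without and -0.27 with conditioning, and those of number 2 were -0.42 and -0.50. Those of number 19 were -0.30 and -0.44. These 3 genes no longer met the rule in both states, number 2 by a margin under 0.01 with conditioning. Number 1 still met it, with -0.92 and -0.66.

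**Figure D3:**
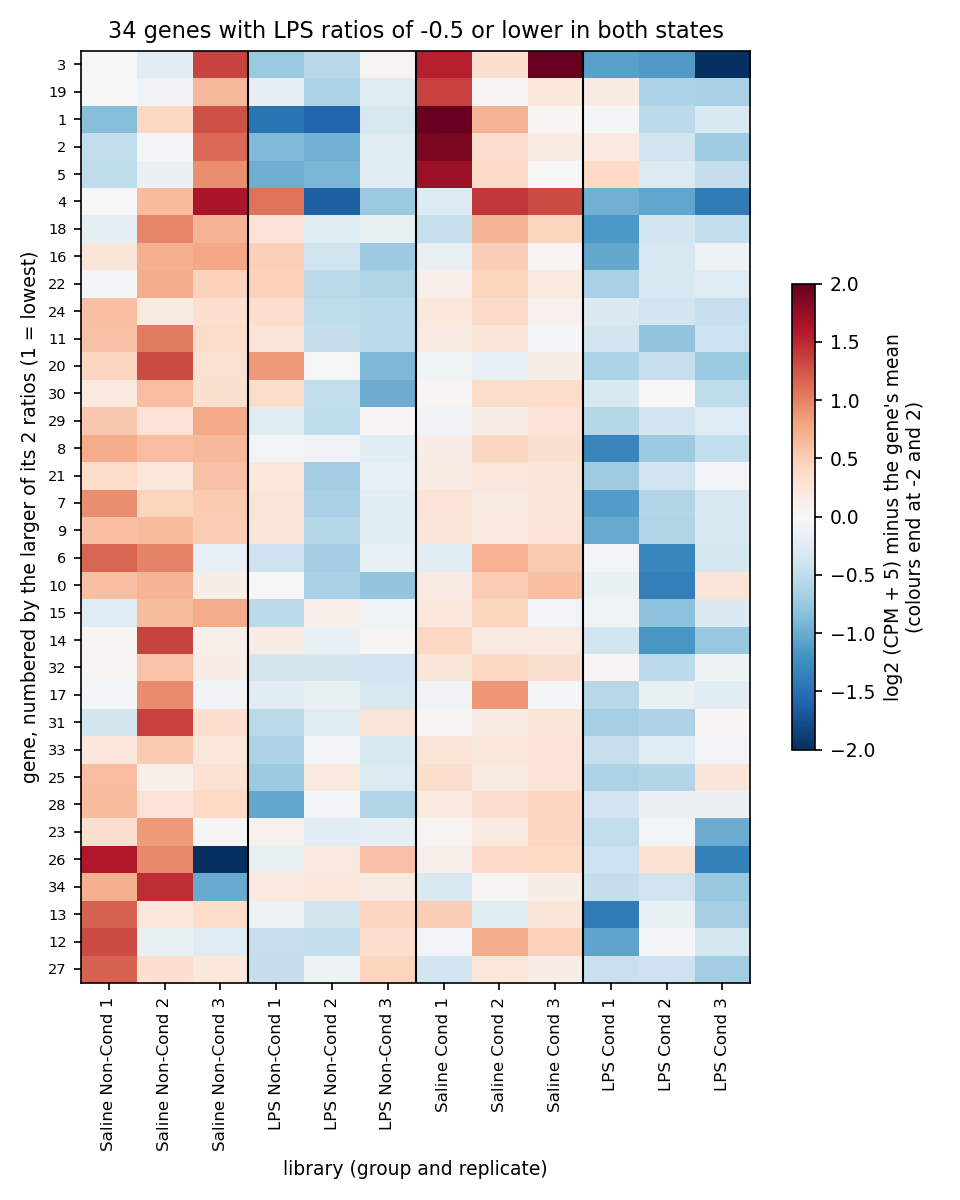
Each row is 1 of the 34 genes and each column 1 library, and the colour is log2 (CPM + 5) minus the mean of the gene over the 12 libraries, in rows ordered by how the genes varied within groups. Genes 19, 1, 2 and 5 are highest in Saline Cond replicate 1 and genes 26 and 34 are low in Saline Non-Cond replicate 3, while most other rows are red in both saline groups and blue in both LPS groups.

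Number 7 varied most like number 9, at an r of 0.92, and number 21, at 0.86. Number 9 stood at 244, 248 and 227 CPM in the Saline Non-Cond and at 189, 106 and 136 CPM in the LPS Non-Cond libraries. With conditioning it stood at 190, 182 and 193 CPM after saline and at 76.9, 103 and 128 CPM after LPS. Its count was 0.579 to 0.825 times that of ENSGALG00000025810.3, and 0.712 times or more in 11 of the 12 libraries. Number 21, at a mean of 616 CPM the third most abundant of the 34 genes, had ratios of -0.56 and -0.58. Its saline and LPS libraries overlapped without conditioning, where LPS Non-Cond replicate 1 stood at 699 CPM and Saline Non-Cond replicate 2 at 698 CPM.

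The steepest falls with conditioning were in 2 sparse genes, at ratios of -3.24 and -2.11. Number 3 had 39, 6 and 147 counts in the Saline Cond libraries and 3, 3 and 0 in the LPS Cond libraries, all 3 of which are at or under 3 counts. In non-conditioned birds it had 6, 3 and 29 counts with saline and 3, 7 and 6 with LPS, and the groups overlapped. Number 4 stood at 20.3, 76.2 and 70.6 CPM in the Saline Cond and at 10.7, 9.90 and 6.64 CPM in the LPS Cond libraries. Without conditioning it stood at 25.4, 42.3 and 90.2 CPM with saline and at 59.8, 4.87 and 13.3 CPM with LPS, where replicate 1 of the LPS group was above 2 of the 3 saline libraries.

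Heat conditioning over both injections, the mean of its effects with saline and with LPS, is not a comparison the rule was written on, but it is made of the same 4 group means. Its estimate is unrelated to both LPS effects only where the 4 groups vary equally, and their totals differed from 189180 to 963146 counts per library. The shallowest library, Saline Non-Cond replicate 2, held the highest level of 14 of the 34 genes, and LPS Cond replicate 1 the lowest level of 12. These counts were not taken over the 3999 genes, so they are not read as a trait of the 34. How far the choice of the genes moved the conditioning estimates was not tested, and the values below are a description. No gene of the 34 was called (edgeR, 0 of 34, smallest adjusted p = 0.824), and 1 gene of 5170 (0.0193%) was called in all. At an unadjusted p under 0.05, 9 of the 34 genes were lower and 2 higher in conditioned birds (edgeR). Over all 5170 genes these shares were 2.92% lower and 1.74% higher. DESeq2 and limma with library weights also called 0 of the 34, and edgeR with no filter on low counts called 3. In the same order, these settings called 2, 1 and 37 of all tested genes.

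The log2 fold change of conditioned over non-conditioned birds was below 0 in 27 of 34 genes (79.4%). It was below 0 in 52.3% of the 5170 tested genes, which were not chosen by these group means, so nothing is read from the difference. Its median was -0.23 and that of all tested genes -0.01, and single genes ran from -0.82 to 0.93. With each library left out in turn, 24 to 28 of the 34 genes were below 0 and the median lay between -0.32 and -0.20. Without both Saline Cond replicate 1 and Saline Non-Cond replicate 3, 25 of the 33 genes that could be tested were below 0. Without numbers 1, 2, 5 and 19, a set chosen after its values were seen, 27 of 30 genes were below 0, at a median of -0.31. The genes are not independent of each other, and no test was made over the list.

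ENSGALG00000025810.3 had a log2 fold change with conditioning of -0.44 ± 0.16 (SE, edgeR adjusted p = 0.896) and ENSGALG00000009854.6 of -0.63 ± 0.22 (SE, edgeR adjusted p = 0.824). Neither passed over all genes. The lowest value, -0.82 ± 0.30 (SE, edgeR adjusted p = 0.942), was in number 20, which had 165 counts in total. It stood at 41.2, 79.3 and 37.2 CPM in the Saline Non-Cond and at 27.1, 25.4 and 32.2 CPM in the Saline Cond libraries. With LPS it stood at 56.7, 29.2 and 13.3 CPM without conditioning and at 17.1, 19.8 and 15.5 CPM with it, and these groups overlapped. The 3 highest values, 0.93, 0.63 and 0.52, were in numbers 1, 5 and 2, which are highest in Saline Cond replicate 1. Within LPS alone their log2 ratios of conditioned to non-conditioned means, with 5 CPM added, were 0.73, 0.59 and 0.41. Without Saline Cond replicate 1 and Saline Non-Cond replicate 3, their Saline Cond means were 276, 23984 and 6161 CPM. Their Saline Non-Cond means were then 197, 16750 and 4390 CPM.

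**Figure D4:**
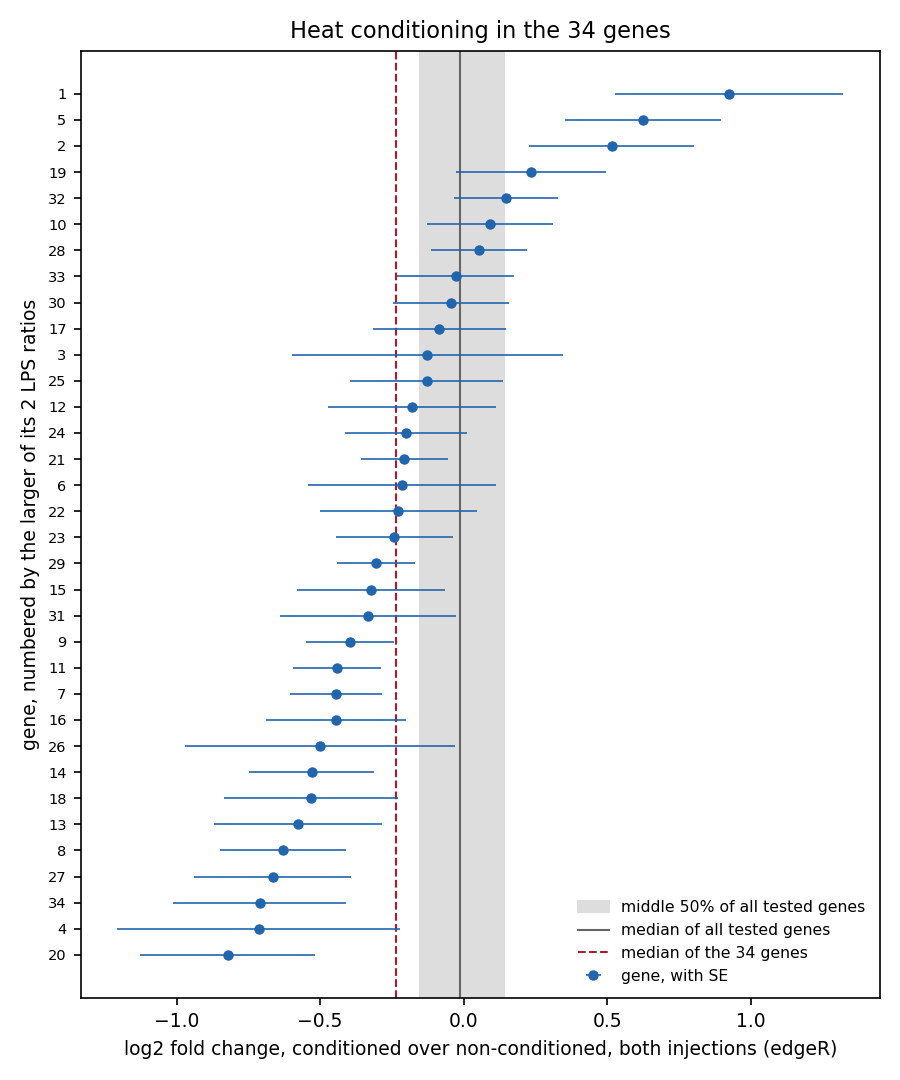
The log2 fold change of conditioned over non-conditioned birds over both injections (edgeR, point with SE) for each of the 34 genes, with the median of the 34 (dashed, -0.23), the median of all tested genes (line, -0.01) and the middle 50% of all tested genes (grey). Of the 34 points 27 lie below 0, and genes 1, 5 and 2 lie farthest above it.

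Within saline the conditioned mean was lower than the non-conditioned mean in 27 of the 34 genes, and within LPS in 25, with 23 genes lower in both. The median log2 ratio, with 5 CPM added, was -0.20 with saline and -0.24 with LPS, where the medians over the 3999 genes were 0.00 and -0.01. The order Saline Non-Cond, Saline Cond, LPS Non-Cond, LPS Cond from highest to lowest mean was seen in 21 of the 34 genes. The same group means chose the genes, and these counts were not taken over the 3999 genes, so nothing about conditioning is read from them. The highest group was Saline Non-Cond in 27 genes and Saline Cond in 7, and the lowest group was LPS Cond in 25 and LPS Non-Cond in 9. That the highest group is a saline group and the lowest an LPS group follows from the rule.

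Apart from the same 4, the other 30 genes together held 0.399%, 0.429% and 0.379% of the counts in the Saline Non-Cond libraries. Their share was 0.303%, 0.340% and 0.341% in the Saline Cond libraries. It was 0.293%, 0.198% and 0.231% in the LPS Non-Cond libraries and 0.176%, 0.191% and 0.221% in the LPS Cond libraries. The 2 saline groups did not overlap in this share and the 2 LPS groups did. The same group means chose these genes, and the 4 were set apart after their values were seen, so nothing is read from this. That the saline groups hold the larger shares follows from the choice of the genes. Over all 34 genes the order of the states was the other way, with most of the share held by number 5. They held 3.55% ± 1.75 in Saline Non-Cond and 5.35% ± 3.41 in Saline Cond libraries, and 1.90% ± 0.50 in LPS Non-Cond and 2.64% ± 0.79 in LPS Cond libraries (SD, n = 3). In single libraries the share ran from 1.58% to 9.27%, the latter in Saline Cond replicate 1.

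How far the membership of the 34 genes rests on single libraries was described by leaving out each of the 12. The rule then chose between 26 and 42 genes, of which 23 to 30 were among the 34. The fewest remained without Saline Non-Cond replicate 2, the library with the lowest total, in which 14 of the 34 genes had their highest level. How many of the 3999 genes had their highest level there was not counted. In all 12 settings 6 genes still met the rule, namely numbers 1, 6, 7, 8, 9 and 11. A further 3 were lost in 1 setting, 9 in 2 settings, and 16 in 3 or more, up to 5. ENSGALG00000025810.3 and ENSGALG00000009854.6 are among the 6.

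**Figure D5:**
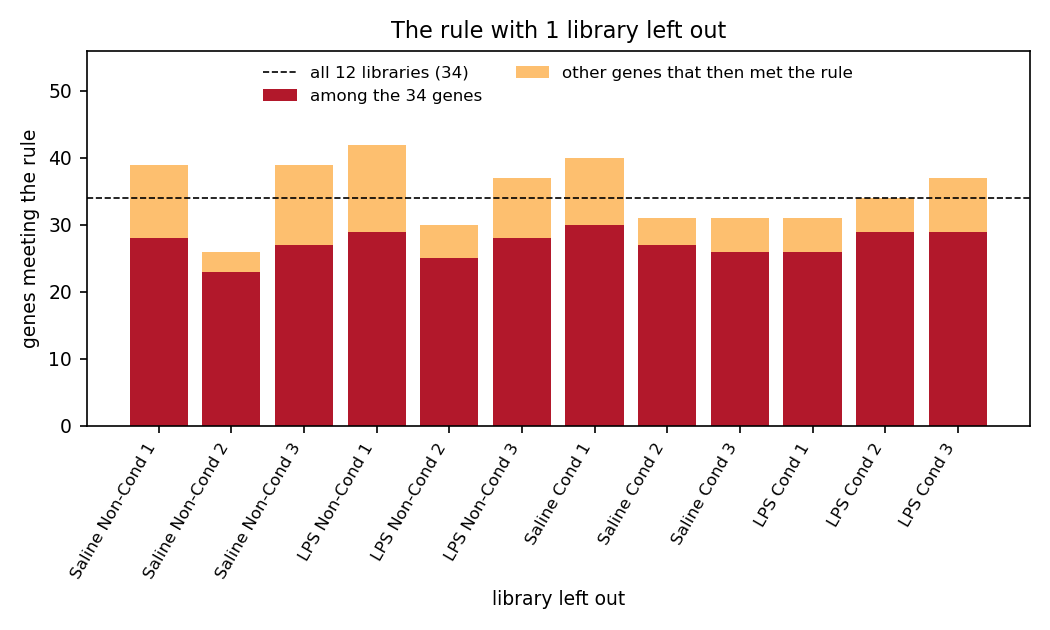
Number of genes meeting the rule when the library on the x axis is left out, split into genes among the 34 (red) and other genes that then met the rule (orange), with the 34 of all 12 libraries dashed. Between 23 and 30 of the 34 genes remained, the fewest without Saline Non-Cond replicate 2.

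In 4 of these 6 genes, numbers 7, 8, 9 and 11, the LPS libraries lay below the saline libraries in both states. The same held for 9 of the 34 genes and for 0.625% of the 3999. The rule compares these same LPS and saline libraries in every setting, so nothing is read from the count of 4. Number 11 was the most abundant of the 4. It stood at 545, 745 and 465 CPM in the Saline Non-Cond and at 431, 257 and 249 CPM in the LPS Non-Cond libraries. With conditioning it stood at 407, 428 and 349 CPM after saline and at 275, 206 and 266 CPM after LPS. Its LPS libraries lay below the saline libraries in both states, and its log2 fold change with conditioning was -0.44 ± 0.15 (SE, edgeR adjusted p = 0.824), which was not called. Number 6, at 66.6, 58.1 and 23.5 CPM in the Saline Non-Cond and 18.9, 14.6 and 23.3 CPM in the LPS Non-Cond libraries, met the rule in all settings with few counts, 154 in total. Its Saline Non-Cond replicate 3 and its LPS Non-Cond replicate 3 differed by less than 1 CPM.

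Numbers 28 and 29 complete the 6 genes without overlap among the 8 called for the mean of both LPS effects. Number 29 stood at 396, 333 and 465 CPM in the Saline Non-Cond and at 230, 190 and 276 CPM in the LPS Non-Cond libraries. The Saline Cond libraries stood at 258, 301 and 333 CPM and the LPS Cond libraries at 181, 208 and 228 CPM. The saline and LPS libraries did not overlap in either state. Number 28 stood at 130, 100.4 and 110 CPM in the Saline Non-Cond and at 37.8, 79.6 and 53.2 CPM in the LPS Non-Cond libraries. Its Saline Cond libraries stood at 94.9, 106 and 112 CPM and its LPS Cond libraries at 61.9, 75.3 and 75.3 CPM, again without overlap. Its conditioning effect was 0.05 ± 0.17 (SE, edgeR adjusted p = 0.999), on the other side of 0 from most of the 34 genes, and the interval of about 2 SE around it spans both directions.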

How the data were processed

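The authors deposited a table of 11207 genes, per the file headers, whose raw counts entered every test unchanged. Its normalized signal, also made by the authors, is each raw count multiplied by 1 factor per library (1.13 to 6.25), apart from rounding, and served 1 alternative scaling. STAR, HTSeq, cutadapt and DESeq2 appear in the submitters' processing notes, with galGal5 as the build. The sources used here give no versions, annotation, strand setting or use of molecular identifiers, so counts may be reads or molecules, and overlapping genes or copies may share them. The labels state about 25 M reads per sample from 15 ng of RNA. The counts limit precision, and counting error is not the whole spread. Replicates are separate pools as far as the labels say, and correlated at 0.884 to 0.956 in log2 CPM (prior count of 2).

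The members and lists were chosen with earlier results of these data known. All 12 libraries entered 1 edgeR 4.0.16 quasi-likelihood fit (R 4.3.3, TMM, filterByExpr with a minimum count of 10, 5170 genes, 2-sided), with 1 mean per group. The script was tested on simulated data. The groups are those of the labels. Alternatives were DESeq2 1.42.0, limma 3.58.1 with library weights, RLE, other filters, a replicate block, other settings of the rule and each library left out. The planned rule for naming took the first 2 genes of the ranking without overlap in both states where no identifier matches a name (0 matched). The planned gene lists, markers and sequences could not be applied.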

Additional observations from a re-analysis of the deposited data

How the results depend on the processing

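The rule chose 34 genes, 15 with a minimum of 300 counts, 65 with a minimum of 60 counts (all 34 among them) and 8 at a threshold of -0.75. It chose 24 to 46 with the other pseudocounts, scalings and group medians, the last sharing 22 of the 34 genes, and 26 to 42 with a library left out. Without Saline Cond replicate 1 and Saline Non-Cond replicate 3, chosen after seeing the data as was the authors' scaling, it chose 54 (26 of the 34). LPS without conditioning called 28 genes, 11 with library weights, 80 with no filter and 8 to 65 with a library left out. LPS with conditioning called 9, 25 with weights, 65 with no filter, 21 without those 2 libraries and 2 to 22 with a library left out. The mean of both LPS effects called 38, 69 with weights, 109 with no filter and 19 to 78 with a library left out. Conditioning over both injections called 1, 2 with DESeq2, 37 with no filter, 3 without those 2 libraries and 0 to 6 with a library left out. Of the 34 genes it called 0, 3 with no filter, and 0 with a library left out. The cause of these moves was not tested.

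Whether equal replicate numbers mark a pairing or a shared batch was not tested. Deviations of same-numbered libraries correlated at -0.11 to 0.13, with 2 of 18 above 0.1, and those of other-numbered libraries at -0.16 to 0.13. Of the 12 libraries, 7 correlated best with a library of their own number. How many would do so without any pairing was not computed, so nothing is read from this count. The replicate block gave 25, 10, 39 and 2 calls for the 4 comparisons in the same order. Of the values of the 2 named genes under these alternatives, 145 stayed on their side of the threshold in the same direction, 4 gained a call and 1 lost it. Only the mean of both LPS effects was called for these genes in the main fit. It stayed called in 19 alternatives for ENSGALG00000025810.3 and in 17 for ENSGALG00000009854.6. The other unchanged values stayed uncalled. The rule used the LPS comparisons, so nothing is read from their constant direction. DESeq2 gave ENSGALG00000009854.6 no adjusted p for LPS with conditioning and for the mean of both LPS effects, and these 2 values are not among the counts. Low totals limit the sparse genes most.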
